A study of Gallus gallus with 50 samples.

Results

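TFAP2B and FOXD3 are transcription factor genes of the neural crest, and they make up 2 of the 24356 genes counted in sorted cells of the early chicken head. They were taken by their identifiers, ENSGALG00000016680 for TFAP2B and ENSGALG00000042686 for FOXD3, because their RNA had been higher in the sorted crest fraction than in the rest of the head in these same libraries. The difference between the fractions is therefore described below without a test, while changes between stages within a fraction, the ratio of the genes to each other and their spread between libraries are tested. The identifiers come without symbols in the deposited tables, so both names rest on the choice of the members and on their place in the genome.

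Neural crest cells arise at the border of the neural plate, leave the forming neural tube and give rise to much of the facial skeleton, to peripheral neurons and glia and to pigment cells. TFAP2B encodes an AP-2 family protein, a relative of TFAP2A that binds DNA as a dimer, and inherited changes in the human gene affect the face, the hand and the ductus arteriosus. FOXD3 encodes a forkhead protein that is widely used as an early marker of the crest. It is known for keeping crest cells in an undecided state and, in the mouse, for its part in pluripotent cells of the embryo.

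Chicken embryos had been electroporated with ptk-TFAP2AE1-GFP, a GFP reporter under an enhancer of TFAP2A, and then grown outside the egg. At Hamburger-Hamilton (HH) stages 6, 8, 10, 12, 14 and 16, which count the morphological steps of chick development, about 20 heads were pooled for a sample, dissociated and sorted. The GFP-positive fraction is labelled neural crest and its groups NC_6 to NC_16, and the GFP-negative fraction of the same kind of heads is labelled whole embryo and its groups WE_6 to WE_16, so both carried the electroporation. In the authors' filtered table each fraction had 3 libraries at HH6 and likewise at HH8, HH10 and HH14, 4 at HH12 and 5 at HH16.

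The 42 libraries held 4869937 to 29316689 counted reads, and 15737 genes passed the filter on low counts, both members among them. Fractions are defined by the reporter alone. A crest cell without an active reporter was sorted as GFP-negative, and a cell of another type with an active reporter as GFP-positive. The enhancer belongs to another AP-2 gene, so the sort is one on the activity of that enhancer and not an independent crest marker. No other marker gene could be looked up by its symbol, so the makeup of the fractions was not tested. The libraries also fall into 4 sequencing sets by the run names in the labels, here called A, B, C and D, and D holds HH12 libraries alone. The authors' filtered table leaves out 8 further libraries, of which the pairs labelled HH8 and HH6 had more of both genes in the library with the GFP-negative label than in its GFP-positive counterpart. They enter no value below unless it is said. In bulk RNA a fraction with fewer expressing cells and one with less RNA per cell cannot be told apart.

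On GRCg6a the TFAP2B row lies on chromosome 3 from 108221189 to 108246601 on the minus strand, in 7 exon blocks of 1396 bases in all. One gene on the opposite strand shares 134 exon bases with it, and that gene had 47 reads over the 42 libraries against 50136 for TFAP2B, counted by strand. The FOXD3 row lies on chromosome 8 from 28132665 to 28133855 on the plus strand, with a counted length of 1188 bases in 4 blocks split by gaps of 1 base. That length is a multiple of 3 and spans little more than a coding region. Reads in untranslated ends that lie outside these blocks were not counted. The RefSeq annotation of another chicken assembly also puts TFAP2B on chromosome 3, between PKHD1 and TFAP2D, and FOXD3 on chromosome 8, between ATG4C and ALG6.

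The nearest annotated gene without overlap on each side of a member had few reads in these heads. These genes came without symbols and were not matched to PKHD1, TFAP2D, ATG4C or ALG6. Reads of those named genes were not looked up. Beside TFAP2B, the nearest annotated gene at lower coordinates had 14 reads over all 42 libraries, and the nearest at higher coordinates, 20867 bases away, had 244 reads and a highest group mean of 0.709 CPM (counts per 1000000 counted reads). Beside FOXD3, the nearest gene at lower coordinates had 30 reads, and the nearest at higher coordinates, 4939 bases away, had 134 reads and a highest group mean of 0.360 CPM. High crest levels were thus seen at the members and not at these nearest annotated genes.

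TFAP2B RNA was present in both fractions and higher in GFP-positive cells from HH6 to HH14. Levels are CPM on TMM-scaled library sizes, with libraries in the order of their replicate numbers. At HH6 it stood at 7.19, 4.72 and 47.98 CPM in GFP-positive cells, against 1.39, 0.242 and 0.711 CPM in GFP-negative cells. At HH8 it stood at 55.7, 89.2 and 76.4 CPM in GFP-positive cells, against 4.002, 3.72 and 6.09 CPM in GFP-negative cells. Every GFP-positive library lay above every GFP-negative library at both stages, but the third GFP-positive library at HH6 came near the lowest at HH8 and stood well above its own group. The GFP-negative values at HH6 rest on 23, 4 and 3 reads, so that the exact Poisson 95% counting interval of the second library runs from 0.0658 to 0.618 CPM.

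At HH10 TFAP2B had 89.2, 238 and 123 CPM in GFP-positive cells, against 7.91, 27.5 and 9.53 CPM in GFP-negative cells. At HH12 it had 284, 235, 232 and 377 CPM in GFP-positive cells, against 21.98, 14.99, 27.5 and 38.9 CPM in GFP-negative cells. The HH12 crest libraries formed the highest group, with a mean of 282 ± 67.9 CPM (SD, n = 4) and 1.63-fold between the highest and the lowest library. At HH14 the gene had 247, 174 and 68.7 CPM in GFP-positive cells, against 16.1, 22.9 and 20.4 CPM in GFP-negative cells. At HH16 it had 97.7, 45.1, 8.48, 71.8 and 64.7 CPM in GFP-positive cells, against 21.9, 27.8, 23.2, 32.8 and 25.9 CPM in GFP-negative cells. The HH16 fractions overlapped, because the third GFP-positive library fell below all 5 GFP-negative libraries while the other 4 GFP-positive libraries stood above them. That library, NC_16 replicate 3, also had the fewest genes with 10 or more reads of all 42, at 11128.

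FOXD3 RNA was higher in GFP-positive cells at every stage. At HH6 it had 28.8, 43.3 and 159 CPM in GFP-positive cells, against 11.1, 20.3 and 9.48 CPM in GFP-negative cells. At HH8 it had 145, 361 and 175 CPM in GFP-positive cells, against 9.53, 20.6 and 25.3 CPM in GFP-negative cells. At HH10 it had 185, 421 and 114 CPM in GFP-positive cells, against 16.5, 25.4 and 12.6 CPM in GFP-negative cells. The crest libraries of these early stages spread widely within a stage, yet each stood above all GFP-negative libraries of its stage. The third GFP-positive library at HH6 was again the highest of its group, as it was for TFAP2B.

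At HH12 FOXD3 stood at 115, 69.0, 210 and 240 CPM in GFP-positive cells, against 6.51, 3.996, 23.6 and 19.4 CPM in GFP-negative cells. At HH14 it stood at 391, 153 and 42.5 CPM in GFP-positive cells, against 17.3, 20.8 and 11.2 CPM in GFP-negative cells. At HH16 it stood at 38.1, 56.1, 82.4, 64.0 and 56.4 CPM in GFP-positive cells, against 7.26, 22.9, 16.0, 9.71 and 9.63 CPM in GFP-negative cells. The fractions did not overlap at any of these stages. NC_16 replicate 3, which was lowest for TFAP2B, was the highest of the 5 GFP-positive libraries for FOXD3.

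**Figure D1:**
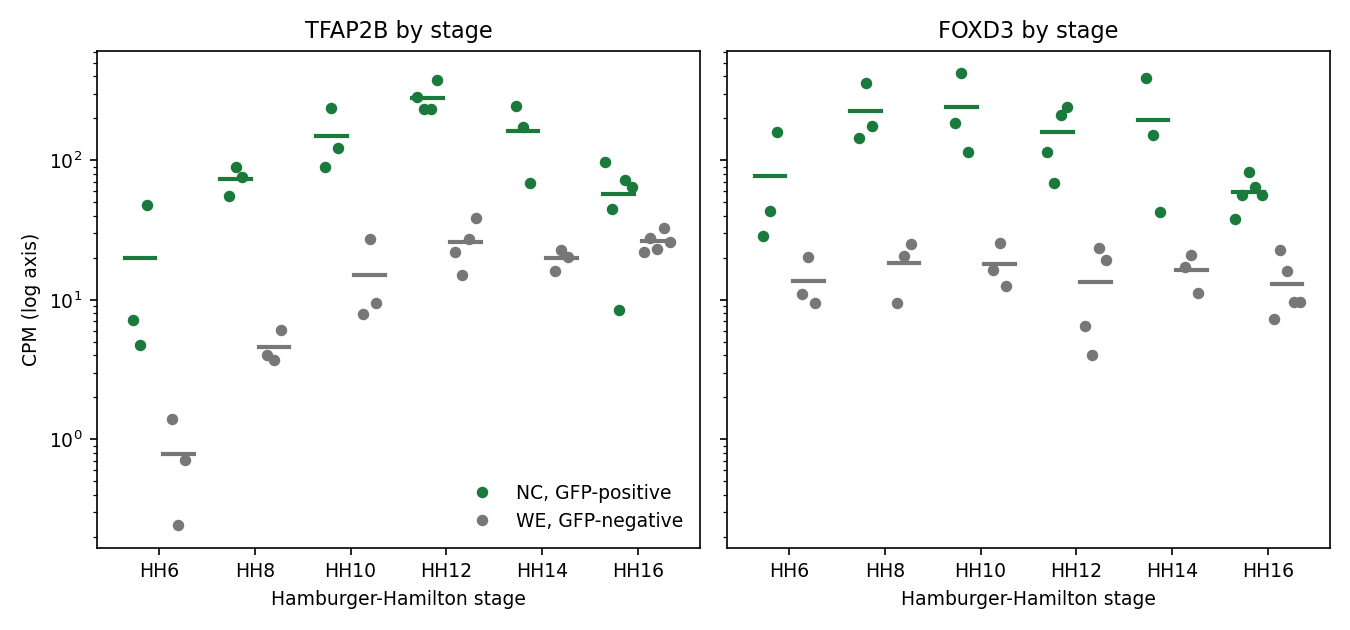
TFAP2B (left) and FOXD3 (right) in every library, as CPM on a log axis by Hamburger-Hamilton stage, with GFP-positive in green left of GFP-negative in grey, 1 point per library and a bar at the group mean. TFAP2B climbs to a mean of 282 CPM in NC_12 and climbs in GFP-negative cells as well, while FOXD3 in GFP-negative cells stays between 3.996 and 25.4 CPM and is lower than in GFP-positive cells at all 6 stages.

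The separation between the fractions, which served to choose the genes, was smallest at the last stage for TFAP2B. For FOXD3 it was smaller there than from HH8 to HH14. The mean log2 difference of GFP-positive minus GFP-negative was 3.97 at HH6, 3.98 at HH8, 3.42 at HH10, 3.50 at HH12, 2.86 at HH14 and 0.77 at HH16 for TFAP2B. For FOXD3 it was 2.17, 3.61, 3.57, 3.74, 3.09 and 2.25 at the same stages. The fractions did not overlap for TFAP2B at 5 of the 6 stages and FOXD3 at 6 of 6. Among all tested genes, the share that stood higher in GFP-positive cells without overlap was 7.4% at HH6, 11.8% at HH8, 7.51% at HH10, 4.07% at HH12, 5.37% at HH14 and 0.483% at HH16, given as background only. The group means of TFAP2B differed 25.6-fold at HH6, with few reads in GFP-negative cells, and 2.19-fold at HH16, where GFP-positive cells had 57.6 ± 33.3 CPM and GFP-negative cells 26.3 ± 4.27 CPM (SD, n = 5 each). Every GFP-positive library at HH16 stood above all GFP-negative ones for FOXD3, and for TFAP2B all but NC_16 replicate 3 did. Without that library the mean log2 difference of TFAP2B at HH16 was 1.37. Whether the HH16 difference departs from that of earlier stages was not tested, since the fractions chose the genes.

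A name in the titles joins a GFP-positive library to a GFP-negative one, read here as a single pool of heads, and 19 such pairs were kept, with 2 at HH10, 5 at HH16 and 3 at each other stage. FOXD3 was higher in the GFP-positive library of 19 of 19 pairs, by 2.13-fold to 22.4-fold. TFAP2B was higher in GFP-positive cells in 18 of 19 pairs, by up to 58.2-fold, and in the remaining pair, the third at HH16, the GFP-positive library had 0.369 times the level of its GFP-negative mate. At HH16 the 5 TFAP2B pairs lay between that value and 4.44-fold, whereas the 5 FOXD3 pairs lay between 2.45-fold and 6.52-fold.

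**Figure D2:**
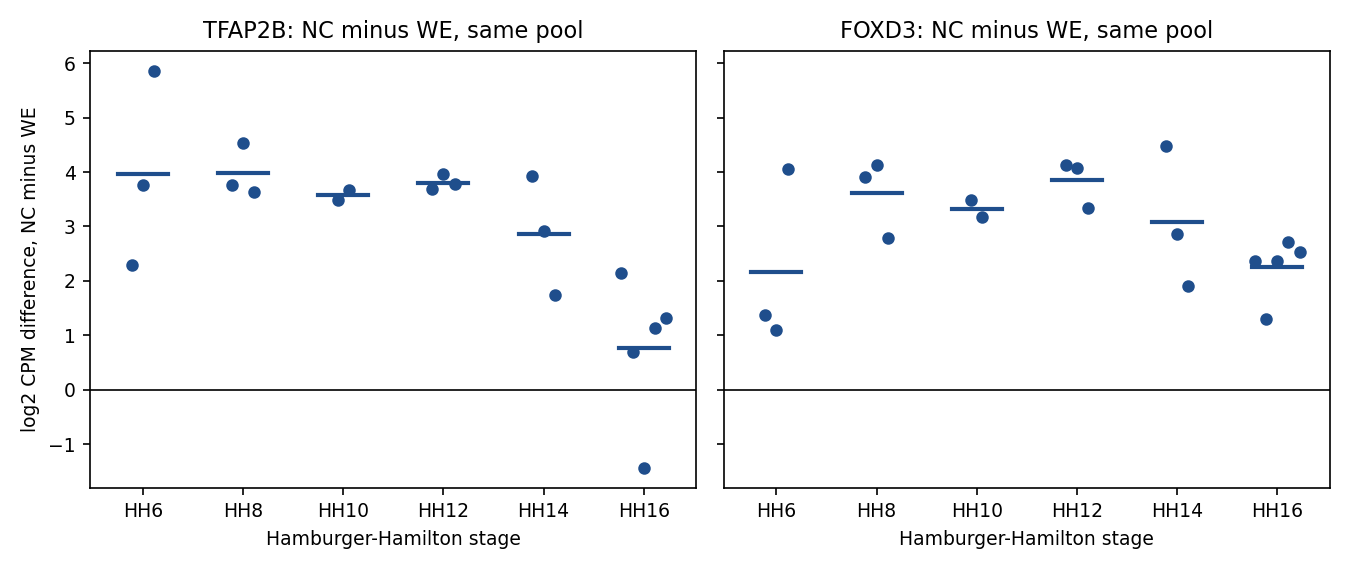
The log2 CPM difference of GFP-positive minus GFP-negative within each of the 19 shared pools, by stage, for TFAP2B (left) and FOXD3 (right), with 1 point per pool, a bar at the mean and a line at no difference. All FOXD3 points lie above the line, and 1 TFAP2B point, at HH16, lies below it at -1.44.

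Ranked by group mean, TFAP2B ran from NC_12 at the top through NC_14, NC_10, NC_8, NC_16, WE_16, WE_12, NC_6, WE_14, WE_10 and WE_8 to WE_6. Library ranges of neighbours in that order overlapped in 8 of 11 cases, and they were apart between WE_10 and WE_8 and between WE_8 and WE_6. For WE_10 and WE_8 the counting intervals of the nearest libraries still overlapped, at 6.05 to 10.2 CPM and 4.97 to 7.38 CPM. For WE_8 and WE_6 they did not, at 2.78 to 4.86 CPM and 0.879 to 2.08 CPM. NC_10 and NC_8 were apart in name only, with 89.23 CPM in the lowest NC_10 library and 89.18 CPM in the highest NC_8 library, far inside the counting interval of 84.9 to 93.7 CPM of the first. FOXD3 ran from NC_10 through NC_8, NC_14, NC_12, NC_6, NC_16, WE_8, WE_10, WE_14, WE_6 and WE_12 to WE_16. Its neighbours overlapped in 10 of 11 cases, and the single gap lay between the lowest GFP-positive group and the highest GFP-negative group. The TFAP2B mean in NC_6, 20.0 ± 24.3 CPM (SD, n = 3), stood within the range of later GFP-negative groups. That was not so for the FOXD3 mean of any GFP-positive group. The single NC_6 libraries lay outside the ranges of WE_10, WE_12, WE_14 and WE_16, with 7.19 and 4.72 CPM below them and 47.98 CPM above.

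Per length, both genes were among the more abundant transcripts of the crest fraction in their highest groups. In RPKM, which divides CPM by the counted exon length in kilobases, TFAP2B had 202 ± 48.6 RPKM in NC_12 (SD, n = 4) and ranked 312 of 15737 tested genes by that mean. FOXD3 had 202 ± 135 RPKM in NC_10 (SD, n = 3) and ranked 349. At the first and last stages TFAP2B ranked lower, above 65.4% of tested genes in NC_6 and 85.3% in NC_16. FOXD3 was lowest in NC_16, above 87.8% of them. Their ranks in GFP-negative cells parted more. TFAP2B had 0.558 ± 0.412 RPKM in WE_6 (SD, n = 3), above 17.3% of tested genes, and 18.8 ± 3.06 RPKM in WE_16 (SD, n = 5), above 71.5% of them. FOXD3 lay above 58.3% to 66.8% of tested genes in GFP-negative cells at all 6 stages.

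TFAP2B rose in both fractions over the first stages, and FOXD3 passed no test there. In NC_10, TFAP2B averaged 150 ± 78.0 CPM, against 20.0 ± 24.3 CPM in NC_6 (SD, n = 3 each), and all 3 HH10 libraries lay above all 3 HH6 libraries, as for 11.1% of tested genes. The log2 fold change was 2.91 ± 0.67 (SE), a 7.51-fold rise, with an adjusted p of 0.0129 in the quasi-likelihood test of edgeR. FOXD3 averaged 240 ± 161 CPM in NC_10, against 77.1 ± 71.6 CPM in NC_6, with a log2 fold change of 1.64 ± 0.66 and an edgeR adjusted p of 0.242. Its HH6 and HH10 libraries overlapped. Without single libraries its edgeR adjusted p ranged from 0.0549 to 0.664. The changes of the genes were not compared with each other. The test called 1.05% of genes higher and 0.979% lower in this comparison, and 1 of the 2 members was called. The TFAP2B call was lost without NC_6 replicate 1 (edgeR adjusted p = 0.111), without NC_6 replicate 2 (0.124), without NC_10 replicate 2 (0.0898) and when only the compared groups were fitted (0.129). Its log2 fold change stayed at 2.41 or above in each of these.

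In GFP-negative cells the early rise of TFAP2B was larger in log2 terms, from very few reads. The cells averaged 14.98 ± 10.9 CPM at HH10, against 0.779 ± 0.575 CPM at HH6 (SD, n = 3 each), with no overlap, as for 9.04% of tested genes. The log2 fold change was 4.24 ± 0.81 (SE), with an edgeR adjusted p of 0.00252. FOXD3 averaged 18.2 ± 6.59 CPM in WE_10, against 13.6 ± 5.83 CPM in WE_6, with a log2 fold change of 0.40 ± 0.67 and an edgeR adjusted p of 0.793. Here 1.45% of genes were called higher and 0.794% lower. With limma's voom weights the TFAP2B call was lost (log2 fold change 4.44, adjusted p = 0.172), and a voom fit with the pool as a block gave 4.51 (adjusted p = 0.209).

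Between HH10 and HH16 FOXD3 fell in GFP-positive cells, and TFAP2B did not pass the main test. The highest TFAP2B group, NC_12 at 282 ± 67.9 CPM (SD, n = 4), lies between these stages. No contrast with HH12 was tested. FOXD3 fell to 59.4 ± 16.0 CPM at HH16 (SD, n = 5), against 240 ± 161 CPM at HH10 (SD, n = 3). The log2 fold change was -2.02 ± 0.57 (SE), 4.04-fold lower, with an edgeR adjusted p of 0.0246, and all 5 HH16 libraries lay below all 3 HH10 libraries, as for 7.25% of tested genes. TFAP2B had 57.6 ± 33.3 CPM in NC_16, against 150 ± 78.0 CPM at HH10, a log2 fold change of -1.38 ± 0.54 with an edgeR adjusted p of 0.122. Its groups overlapped at 97.7 CPM in one HH16 library and 89.2 CPM in one HH10 library. In this comparison 3.06% of genes were called higher and 4% lower. The FOXD3 call was lost without NC_10 replicate 2, the highest library of that group (log2 fold change -1.33, edgeR adjusted p = 0.246), and without NC_16 replicate 1 (-1.92, 0.0504), while with sequencing set as a covariate it held at -1.65 (0.00840). TFAP2B passed the threshold with voom (-1.47, adjusted p = 0.0286) and with voom and a pool block together (-1.51, adjusted p = 0.0251).

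In GFP-negative cells neither gene passed the test between HH10 and HH16. TFAP2B averaged 26.3 ± 4.27 CPM in WE_16 (SD, n = 5), against 14.98 ± 10.9 CPM at HH10 (SD, n = 3), with a log2 fold change of 0.80 ± 0.58 and an edgeR adjusted p of 0.493. FOXD3 averaged 13.1 ± 6.35 CPM in WE_16, against 18.2 ± 6.59 CPM at HH10, with a log2 fold change of -0.48 ± 0.59 and an edgeR adjusted p of 0.731. The test called 1.77% of genes higher and 3.12% lower. In both fractions the intervals are wide, and a p over the threshold does not show that a level was constant.

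Over the whole course, TFAP2B was higher at HH16 than at HH6 in GFP-negative cells, and FOXD3 was not called in either fraction. TFAP2B in WE_16 had a log2 fold change of 5.03 ± 0.80 (SE) over HH6, with an edgeR adjusted p of 4.02e-05, and the call held without any single library of these groups (adjusted p up to 0.00173). The lowest of the 5 HH16 libraries, at 21.9 CPM, stood far above the highest HH6 library, at 1.39 CPM, and such a gap was seen in 9.76% of tested genes. The rise covered 1 of the 2 members, with 4.99% of genes called higher and 6.46% lower. FOXD3 had a log2 fold change of -0.08 ± 0.60 there, with an edgeR adjusted p of 0.953, and its sign turned when single libraries were left out.

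In GFP-positive cells, TFAP2B at HH16 had a log2 fold change of 1.53 ± 0.59 over HH6 with an edgeR adjusted p of 0.0805, while 6.12% of genes were called higher and 8.37% lower. Single libraries decided this value. Without NC_6 replicate 3, the high one at 47.98 CPM, the log2 fold change was 3.27 and the edgeR adjusted p 0.000702, and without NC_16 replicate 3, the low one at 8.48 CPM, they were 1.81 and 0.0206. With voom it passed at 2.09 (adjusted p = 0.0307), and with voom and a pool block together at 2.096 (adjusted p = 0.0393). FOXD3 in GFP-positive cells had a log2 fold change of -0.38 ± 0.58 at HH16 over HH6, with an edgeR adjusted p of 0.736. It turned to 0.72 without NC_6 replicate 3.

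The ratio of TFAP2B to FOXD3 reads per counted base within a library does not depend on how libraries are scaled. In GFP-positive cells its geometric mean was 0.172 at HH6, 0.295 at HH8, 0.565 at HH10, 1.66 at HH12, 0.895 at HH14 and 0.657 at HH16. In GFP-negative cells it was 0.0449, 0.225, 0.625, 1.98, 1.05 and 1.84 at the same stages. Per counted base, FOXD3 thus led TFAP2B up to HH10 in the mean of both fractions. Which gene leads depends on the annotated blocks, of 1396 bases for TFAP2B and 1188 for FOXD3, since reads outside them were not counted. The HH12 means differed by sequencing set. In set D, which has no other stage and where FOXD3 was lower, the mean ratio was 2.46 over 2 GFP-positive libraries and 3.01 over 2 GFP-negative ones. In set A it was 1.12 over 2 GFP-positive libraries and 0.991 in a single GFP-negative one, so that the genes were close to equal there. A single GFP-negative library of set B had 1.70. At HH14 the libraries of both fractions lay on both sides of 1, from 0.537 to 1.38 in GFP-positive cells and from 0.790 to 1.54 in GFP-negative cells. All 5 GFP-negative libraries at HH16 lay above 1, at 1.03 to 2.87, and the GFP-positive mean of 0.657 turned to 1.09 without NC_16 replicate 3.

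**Figure D3:**
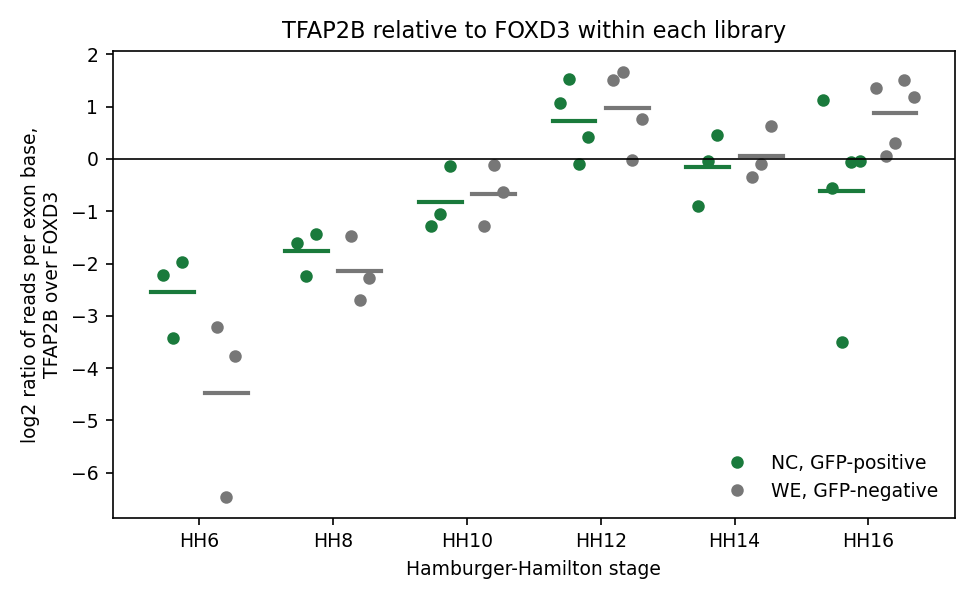
The log2 ratio of TFAP2B to FOXD3 reads per counted exon base in each library, by stage, with GFP-positive in green left of GFP-negative in grey, 1 point per library, a bar at the group mean and a line where the genes are equal. The group means of both fractions climb up to HH12, GFP-negative points stay near the line or above it to HH16, and 1 GFP-positive library at HH16 lies at -3.51.

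In GFP-negative cells the log2 ratio rose with stage, with Pearson's r of 0.82 over 21 libraries (two-sided permutation p = 1e-05, adjusted p = 2e-05) and Spearman's rho of 0.81 (permutation p = 2e-05, adjusted p = 4e-05). The first p is the smallest that 100000 resamples can give. Without WE_6 replicates 1 and 2, taken from the 3 HH6 libraries that lie farthest from the median stage, r was 0.80 (permutation p = 1e-05). It was 0.88 in the 10 GFP-negative libraries of set A (permutation p = 4e-05) and 0.92 in the 6 of set B (permutation p = 0.0227). With sets C and D too small for a value of their own, the relation held in both sets that could be read.

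In GFP-positive cells the coefficient was lower and rested on a few libraries. Pearson's r was 0.51 over 21 libraries (permutation p = 0.0199, adjusted p = 0.0199) and Spearman's rho 0.56 (permutation p = 0.0108, adjusted p = 0.0108). Without NC_6 replicates 1 and 2, taken in the same way, r was 0.35 (permutation p = 0.143). The HH6 libraries tie in distance from the median stage, and these came first in order. The choice kept NC_6 replicate 3, whose log2 ratio of -1.96 was the highest at HH6, against -2.23 and -3.42. In the 12 GFP-positive libraries of set A it was 0.35 (permutation p = 0.259), and the other sets held too few libraries. Without NC_16 replicate 3 it was 0.75 (permutation p = 0.00026). The difference between the fractions in this relation was not tested, and 2 relations were computed in the family.

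Within a fraction and stage, joint movement of the genes from library to library did not pass the test. Deviations from the group means had a Pearson's r of 0.47 in the 21 GFP-positive libraries (permutation within groups, p = 0.0734, adjusted p = 0.147) and 0.30 in the 21 GFP-negative libraries (permutation p = 0.226, adjusted p = 0.226). Spearman's rho was 0.55 in GFP-positive cells (permutation p = 0.0336, adjusted p = 0.0672) and 0.36 in GFP-negative cells (permutation p = 0.164, adjusted p = 0.164). Without the 2 libraries with the most deviant TFAP2B, r was 0.60 in GFP-positive cells (permutation p = 0.0272) and 0.44 in GFP-negative cells (permutation p = 0.0691). Within set A, with 12 GFP-positive libraries, r was 0.60 (permutation p = 0.281). In the 8 GFP-negative libraries of set A it was -0.44, with no usable test, since 4 groups of 2 allow no permutation p under 0.125. Single libraries moved the value in GFP-positive cells in both directions. Without NC_16 replicate 3, r was 0.75 (permutation p = 0.00927, adjusted p = 0.0185). Without NC_6 replicate 3, r was 0.26 (permutation p = 0.311, adjusted p = 0.311).

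FOXD3 levels also moved with the sequencing set, and TFAP2B levels did not pass that test. This comparison was added after the data were seen. With fraction and stage in the model, FOXD3 was lower than in set A by a log2 difference of -0.74 ± 0.26 in set B (edgeR adjusted p = 0.0338), -1.14 ± 0.30 in set C (0.00884) and -1.81 ± 0.43 in set D (0.00511). The joint test over the sets gave an edgeR adjusted p of 0.000347 for FOXD3 and 0.855 for TFAP2B. It called 31.3% of all tested genes, so that a set difference was common in these libraries. Every set A library stood above every other library of its group for FOXD3 at 5 of 6 stages in GFP-positive cells and 4 of 6 in GFP-negative cells, and for TFAP2B at 2 of 6 in GFP-positive cells and 0 of 6 in GFP-negative cells. The share of all tested genes with such an order was not computed. With so few libraries of a set in each group, these counts are description only. FOXD3 also spread within set A, with 43.3 and 159 CPM in NC_6, 185 and 421 CPM in NC_10 and 391 and 153 CPM in NC_14. What the sets differ in was not tested.

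**Figure D4:**
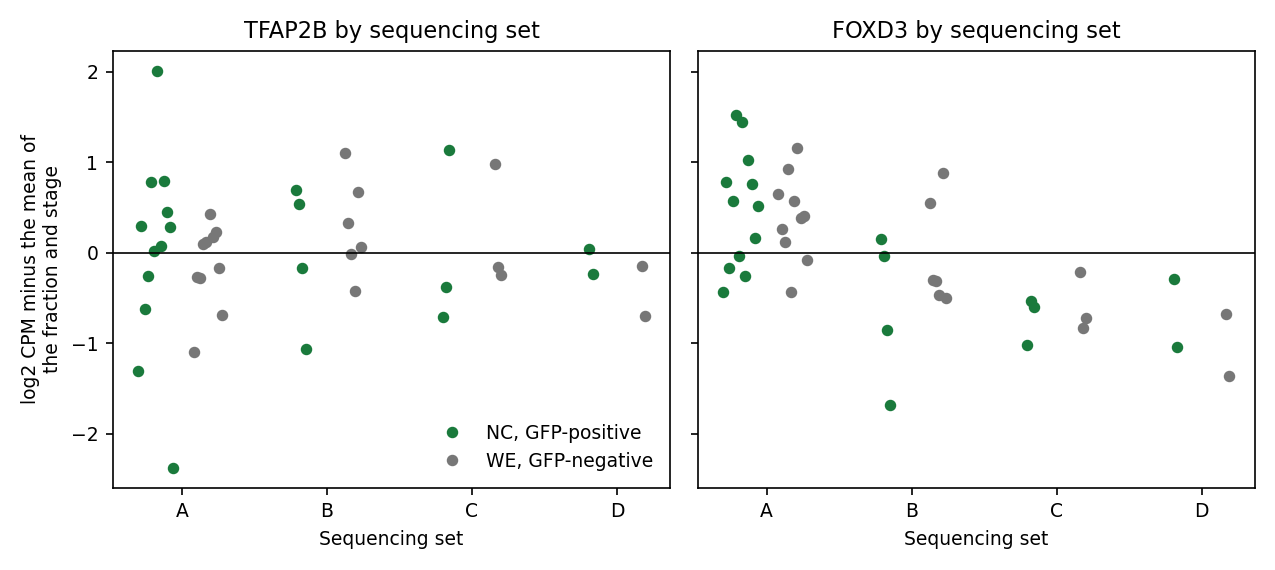
Each library's log2 CPM minus the mean of its fraction and stage, by sequencing set A to D, for TFAP2B (left) and FOXD3 (right), with GFP-positive in green left of GFP-negative in grey and 1 point per library. FOXD3 points of sets C and D all lie below 0 and most points of set A above it, and TFAP2B shows no such order.

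Pairs within a pool come from a single set, so the differences between the fractions of FOXD3 were also taken within sets. Averaged so, they were 1.97, 3.68, 3.37, 3.67, 2.79 and 2.27 from HH6 to HH16 on the log2 scale. For TFAP2B they were 3.55, 3.92, 3.55, 3.62, 2.58 and 1.00. None of these moved from the group value by more than the spread between libraries.

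The full table holds 8 further libraries that the filtered table leaves out, 1 of each fraction at HH6, HH8, HH10 and HH12. The design text says that libraries of low quality were removed. At HH10 the left-out libraries followed their labels, with 148 CPM of TFAP2B in the one labelled NC_10 and 4.12 CPM in the one labelled WE_10, and with 360 CPM and 38.3 CPM of FOXD3. At HH12 TFAP2B had 246 CPM in the library labelled NC_12 and 21.6 CPM in the one labelled WE_12, and FOXD3 had 107 CPM and 22.5 CPM. All of these lay within the ranges of the kept libraries of their labels except those of the library labelled WE_10, which lay below that range for TFAP2B and above it for FOXD3. CPM of left-out libraries were scaled over all 50 libraries.

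At HH8 and HH6 the left-out pairs went against their labels. The library labelled NC_8 had 22 reads of TFAP2B and 8 of FOXD3 among 3238290, which is 5.27 and 1.92 CPM. The library labelled WE_8 had 245 CPM of TFAP2B and 299 CPM of FOXD3, above every kept GFP-negative library of any stage. At HH6 the library labelled NC_6 had 512123 reads, 13769 genes with 10 or more reads and 0 reads of either gene. A floor of 3 counts is 5.86 CPM on its unscaled total, whereas the other levels are on TMM-scaled sizes. The library labelled WE_6 had 12.7 CPM of TFAP2B and 39.9 CPM of FOXD3, above every kept WE_6 library. The left-out libraries of a stage share a pool name and a sequencing set at HH6 and HH8 only. At HH10 and HH12 they differ in both, so those differences also cross sets. The mean log2 difference of GFP-positive minus GFP-negative over the 4 stages depends on what a count of 0 is taken as. With that library at its unscaled floor of 3 counts, which makes no strict bound, the mean was 0.50 for TFAP2B (exact permutation p = 1, two-sided) and -1.12 for FOXD3 (exact permutation p = 0.75). With the prior count in place of the floor it was -0.90 for TFAP2B (exact permutation p = 0.75) and -2.52 for FOXD3 (exact permutation p = 0.5). The smallest p that 4 stages allow is 0.125, so this test could not pass, and it gives no direction for TFAP2B. The library labelled NC was higher at 2 of the 4 stages for each gene.

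With all 50 libraries in the fit, all 4 calls of the 2 genes were lost. TFAP2B in NC_10 over NC_6 then had a log2 fold change of 3.22 (edgeR adjusted p = 0.0603), and FOXD3 in NC_16 over NC_10 had -2.18 (0.148). TFAP2B in GFP-negative cells had 1.64 at HH10 over HH6 (0.805) and 2.75 at HH16 over HH6 (0.0993). The stage changes given above therefore apply to the authors' filtered set of libraries.

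The genes with the most similar profile were sought over the 12 group means of log2 CPM among the other 15736 tested genes. Nearest to TFAP2B were ENSGALG00000031427 on chromosome 3, with r of 0.949, and ENSGALG00000054946 on chromosome Z, with r of 0.947. Both peaked in NC_12, at 20.9 and 12.8 CPM, and were lowest in WE_6, at 2.51 and 0.1996 CPM, as TFAP2B was. Nearest to FOXD3 were ENSGALG00000012775 on chromosome 2, with r of 0.947, and ENSGALG00000011770 on chromosome 7, with r of 0.924. The first of these ran from 23.1 CPM in WE_12 to 186 CPM in NC_8, and the second over a far narrower range, from 141 CPM in WE_16 to 216 CPM in NC_12. Over these group means the members were less like each other, with r of 0.740. FOXD3 ranked 606 in likeness to TFAP2B, and TFAP2B ranked 191 in likeness to FOXD3. Over the 42 single libraries their r was 0.677, with FOXD3 at rank 92 for TFAP2B and TFAP2B at rank 43 for FOXD3. On that measure TFAP2B was nearer to FOXD3 than ENSGALG00000011770 was, which had r of 0.607 and rank 99. The other named genes stayed nearer than the members to each other, with r of 0.775 and 0.856 to TFAP2B and 0.851 to FOXD3. All these points share libraries and the contrast between fractions that chose the genes, so the coefficients are descriptions.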

How the data were processed

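The authors deposited whole-number counts of reads for each gene. These came from featureCounts 1.6.2 on the Ensembl release 99 annotation of GRCg6a and counted on the reverse strand, per the file headers. Trimming with cutadapt 2.10, alignment with HISAT2 2.1.0 and SAMtools 1.9 are listed in the submitters' processing notes. Reads shared between genes were not counted under the options in the header. Both members, the gene lists and the tests were chosen with earlier results of these data known. Groups came from the labels, and 0 counts differed between the filtered table (42 libraries) and the full table (50). Beyond the pool names the labels do not say whether replicates came from separate embryos, and the p-values cover the spread of these libraries, which may be technical. No pair within a group agreed within sampling noise (lowest chi-square per degree of freedom 7.84).

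Genes were filtered with filterByExpr, which removed 8619 of 24356, scaled by TMM and fitted in edgeR 4.0.16 for its quasi-likelihood F test (robust, 12 groups in one fit), with Benjamini-Hochberg adjustment over 15737 genes and a threshold of 0.05. Log2 CPM used a prior count of 2, ratios had 0.5 added to each count, and permutation tests used 100000 resamples unless called exact. Counting intervals cover counting error only. Scripts were tested on simulated data. Alternatives were DESeq2 1.42.0, its size factors, voom in limma 3.58.1, other filters, all 50 libraries, the compared groups alone, sequencing set as a covariate, the pool as a block, and leaving out each library. Alternatives chosen after seeing the data concern the sequencing set, a left-out library with 0 reads, and the ratio without NC_16 replicate 3.

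The pool shared by a GFP-positive and a GFP-negative library was treated as shared heads. Deviations of pool-mates had correlations over all genes of 0.183 to 0.412 at HH6, 0.171 to 0.290 at HH8 and 0.00717 to 0.0921 at HH10. They were 0.149 to 0.401 at HH12, 0.293 to 0.664 at HH14 and 0.0884 to 0.467 at HH16. Both HH10 pairs and the lowest HH16 pair thus stayed under 0.1, and pool-mates hardly deviated together there. Pool-mates also share a sequencing set. Pools are nested in stage, so the block entered as a random effect in limma voom (correlation 0.347). The rule for named genes was both members, the 2 tested genes most like each over 12 group means, the nearest gene on each side, and crest and family genes if symbols could be matched. Of the 25635 rows of the RefSeq table, 0 hold an Ensembl identifier, so those genes and the cell type markers were not tested.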

Additional observations from a re-analysis of the deposited data

Results flagged for a closer look

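One library outside the comparisons carried a strong signal of both genes. The library labelled WE_8 replicate 4, which the authors' filtered table leaves out, had 245 CPM of TFAP2B and 299 CPM of FOXD3. The 3 kept WE_8 libraries lay between 3.72 and 6.09 CPM for TFAP2B and between 9.53 and 25.3 CPM for FOXD3. Its level of TFAP2B was also above the kept NC_8 libraries, which reached 89.2 CPM, while its FOXD3 level lay within their range of 145 to 361 CPM. Its counterpart labelled NC_8 replicate 4 had 5.27 CPM of TFAP2B, within the range of the kept WE_8 libraries, and 1.92 CPM of FOXD3, below that range. That counterpart also had 16842 genes with 10 or more reads among 3238290 reads, more genes than any kept library. Whether the labels of the pair are exchanged was not tested. In the kept groups of 4 and 5 libraries, no library of either gene stood apart by Dixon's criterion, which flags about 1 group in 20 by chance.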

How the results depend on the processing

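Over 12 stage changes of the 2 genes, neither DESeq2 size factors in edgeR nor other filters on low counts (none, or 1 CPM in 3 libraries) changed a call. Counts of called genes were 320, 1110, 2280, 353, 770 and 1803 for HH10 over HH6, HH16 over HH10 and HH16 over HH6 in GFP-positive cells and the same contrasts in GFP-negative cells. With all 50 libraries they were 35, 608, 3460, 34, 396 and 719, and with the compared groups alone 723, 201, 906, 177, 293 and 1088. DESeq2 gave 685 and 1771 for the first 2 and 932 and 1396 for WE_10 over WE_6 and WE_16 over WE_10. For NC_10 over NC_6, voom gave 569, the set covariate 497, voom with the pool block 548 and leaving out the 3 libraries with the fewest genes 573. The set covariate gave 1341 for WE_16 over WE_10, and leaving out those 3 libraries 162 for WE_10 over WE_6. The cause of these moves was not tested.

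With all 50 libraries, TFAP2B had log2 fold changes of 3.22 in NC_10 over NC_6, 1.64 in WE_10 over WE_6 and 2.75 in WE_16 over WE_6, and FOXD3 had -2.18 in NC_16 over NC_10, all short of the threshold. TFAP2B in NC_10 over NC_6 was 2.91 with the compared groups alone, short of it too. In NC_16 over NC_6 TFAP2B passed with DESeq2 (1.498, adjusted p = 0.0385), voom (2.09, 0.0307), voom with the pool block (2.096, 0.0393) and without the 3 libraries with the fewest genes (1.81, 0.0203). In NC_16 over NC_10 it passed with voom (-1.47) and voom with the block (-1.51), and in WE_10 over WE_6 it was lost with voom (4.44) and voom with the block (4.51). Against voom without it, the pool block changed no call of the 2 genes.

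Without single libraries, log2 fold changes of TFAP2B ranged from 2.41 to 4.65, from -1.67 to -0.88, from 1.07 to 3.27, from 3.45 to 5.38, from 0.51 to 1.58 and from 4.49 to 6.18 in the order above. Those of FOXD3 ranged from 0.96 to 2.74, from -2.37 to -1.33, from -0.77 to 0.72, from 0.08 to 0.81, from -0.78 to -0.15 and from -0.37 to 0.34. Counts of called genes ranged from 101 to 260, 620 to 1112, 1417 to 2351, 115 to 422, 371 to 714 and 922 to 1669. FOXD3 turned sign in WE_16 over WE_6 without WE_6 replicate 2 (0.34) or WE_16 replicate 1 (0.08), 4 (0.01) or 5 (0.02), and in NC_16 over NC_6 without NC_6 replicate 3 (0.72).

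The correlation of the ratio with stage in GFP-positive cells was 0.38 with all 50 libraries (permutation p = 0.0600), 0.35 within set A and 0.50 with set means removed (permutation p = 0.0635), and 0.42 to 0.75 without single libraries, lost without NC_6 replicate 2. In GFP-negative cells it ranged from 0.80 to 0.84. Covariation within groups ranged from 0.26 to 0.75 in GFP-positive cells and 0.16 to 0.57 in GFP-negative cells, where it passed without WE_6 replicate 2. With all 50 libraries it was 0.87 in GFP-positive cells (adjusted p = 0.00552) and 0.69 in GFP-negative cells (0.0275), both by permutation, and within set A it was -0.44 in GFP-negative cells. The 50 libraries include NC_6 replicate 4 with 0 reads of either gene and NC_8 replicate 4, low in both. They also include WE_8 replicate 4, high in both. The values over 50 libraries are therefore not read as joint movement of the genes. Over the left-out libraries the TFAP2B difference turned to 1.04 without HH6, 0.64 without HH8 and 0.50 with the library at 0 reads set to 3 counts. Groups of 3 to 5 libraries, with 3 to 23 reads of TFAP2B in WE_6, limit all of these values.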
